A study of Mus musculus with 4 samples.

Results

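The 43 genes described here are listed S phase and G2/M phase genes of the cell cycle, 43 of the 32285 genes in the deposited matrices. They were taken by symbol from the gene annotation of the matrices. The rule that lists them uses no measured value, but the list was chosen with earlier results of these data known. The list holds 15 S phase genes (Pcna, Mcm2, Mcm3, Mcm4, Mcm5, Mcm6, Mcm7, Gins2, Tyms, Rrm1, Rrm2, Tk1, Esco2, Ccne1 and Ccne2) and 28 G2/M genes (Mki67, Top2a, Cdk1, Ccnb1, Ccnb2, Ccna2, Cenpf, Cenpe, Cenpa, Aspm, Anln, Nusap1, Kif11, Kif14, Kif20a, Kif23, Prc1, Ube2c, Birc5, Aurka, Aurkb, Bub1, Bub1b, Plk1, Tpx2, Hmmr, Ect2 and Knl1). All 43 had UMIs, the tagged RNA molecules that are counted, in each of the 4 libraries. The study profiled single cells of the mouse digit after amputation through the second phalanx (P2), a level at which the labels call the tissue fibrosing. One library came from unamputated digits and one each from digits at 12, 17 and 28 days post-amputation (dpa). All mice were wild-type FVB/NJ, 8 weeks old, and labelled as pooled males and females. The dissected digits were dissociated enzymatically (trypsin, then collagenase I), freed of red blood cells and sorted for live cells with propidium iodide before droplet 3′ sequencing.

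A dividing cell copies its DNA in S phase and separates the copies in mitosis, after the G2 gap. S phase genes encode the MCM helicase that opens the double helix, the sliding clamp PCNA, and the enzymes that supply nucleotides. G2/M genes encode the mitotic kinase CDK1 with its cyclins, kinetochore proteins, spindle motors and the machinery that divides the cell and degrades cyclins. Many of these transcripts are kept low in resting cells by the DREAM repressor complex. In skin, basal keratinocytes divide to renew the epidermis, whereas mature neutrophils have left the cycle.

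After filters and removal of probable doublets, 10438 unamputated cells, 6491 cells at 12 dpa, 7938 at 17 dpa and 10173 at 28 dpa were kept, with median depths of 11637.5, 9527, 8507 and 6651 UMIs. Cell classes were rebuilt from markers after 343 cell cycle and histone genes were left out of clustering, which gave 18 named classes (each written "-like") and 5 unnamed clusters. A mismatch with the labels affects every 12 dpa value: no cell of that library had 2 or more UMIs of Y-linked genes and none of Xist, against 47.0 to 77.9% in the other libraries, while 54.2% had 2 or more Xist UMIs and none of Y-linked genes, against at most 0.0096%. The unamputated, 17 and 28 dpa libraries did not show the labelled mix of sexes either. In them Xist made up 0.140, 0.153 and 0.0759 of every 1000000 UMIs, against 459 at 12 dpa. Sex, library and day therefore cannot be told apart for the 12 dpa library. Any 2 libraries shared 12 to 44 cell barcodes among kept cells. There was 1 library a group, so no test between days was possible, and all intervals are exact 95% intervals that cover counting error only, with no spread between animals.

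Across whole libraries the G2/M genes made up nearly the same share of RNA at every day. Their summed level was 597 CPM (UMIs per 1000000 UMIs of the library or class) in the unamputated library, 608 CPM at 12 dpa, 540 at 17 dpa and 621 at 28 dpa. The S genes summed to 303, 273, 288 and 262 CPM. In such sums, fewer cells with the transcripts and less of them per cell cannot be told apart. Mki67, the proliferation antigen, stood at 77.4, 56.9, 75.8 and 71.0 CPM, and Top2a, the topoisomerase that untangles sister chromatids, at 68.9, 67.6, 66.7 and 67.6 CPM. Plk1, a mitotic kinase, was at 3.83, 6.28, 3.82 and 5.15 CPM, and Birc5 (survivin), a subunit of the chromosomal passenger complex, at 25.1, 39.4, 24.2 and 29.1 CPM. Both were highest in the 12 dpa library.

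To count cells at equal depth, each cell of at least 2000 UMIs was thinned at random to 2000, and a cell with UMIs of 2 or more different G2/M genes was called G2/M-high. This is a range of a score and not a cell type. The share was 7.97% of 10133 thinned cells without amputation (95% interval 7.45 to 8.52), 8.69% of 6177 at 12 dpa (8.00 to 9.42), 5.98% of 7569 at 17 dpa (5.46 to 6.54) and 6.33% of 9560 at 28 dpa (5.85 to 6.84). The intervals of the first pair of libraries overlapped each other but not those of the later pair. They cover the counting of cells within 1 library a day, so a difference between days was not tested. Without thinning the shares were 26.02, 22.3, 15.2 and 14.9%, in the order of the median depth. Thinning left out 305, 314, 369 and 613 shallower cells. Near the cutoff, 264, 170, 145 and 173 cells had exactly 2 of the genes, and 1518, 872, 849 and 1233 had exactly 1. G2/M-high cells held 84.6 to 87.8% of each library's G2/M UMIs, and 36.1 to 49.4% of them also had 2 or more S genes. They were also deeper before thinning, with medians of 17426.5, 14826, 13939 and 10501 UMIs against 11581, 9623.5, 8672.5 and 6818 in the other cells. Their median doublet scores were 0.0720, 0.0435, 0.0467 and 0.0605 against 0.0558, 0.0267, 0.0346 and 0.0524. The barcodes removed as probable doublets were 12.8, 7.05, 8.41 and 12.2% of the barcodes of each library. They had G2/M-high shares of 25.2, 18.8, 14.8 and 17.3%. The part of undetected doublets in these shares was not tested.

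The cells that carried the G2/M transcripts were of different classes at different days. Basal keratinocyte-like cells made up 24.1% of the G2/M-high cells without amputation, 15.5% at 12 dpa, 27.6% at 17 dpa and 43.1% at 28 dpa, but 6.10, 4.64, 4.25 and 6.96% of all cells. Tenocyte-like cells (tendon cells, marked by Scx and Fmod) made up 21.4% at 12 dpa, close to their 20.4% of all cells, and pericyte-like cells, which wrap capillaries, 10.6%, beside 8.29% of all cells. Macrophage-like cells made up 17.0% at 17 dpa, beside 11.2% of all cells, and 12.1% at 28 dpa, below their 16.6% of all cells. Recomputing a library's share with the class makeup of the unamputated library separated makeup from level as arithmetic. At 17 dpa, over the 22 classes with enough cells in both libraries, the share was 5.996% with its own makeup and 7.96% with the unamputated makeup, beside 8.05% in the unamputated library. At 28 dpa the values over 17 classes were 6.38, 7.01 and 7.82%, and at 12 dpa 8.71, 9.29 and 7.49%. The opposite exchange, unamputated shares within classes weighted by the later makeup, gave 6.75, 5.80 and 6.44% at 12, 17 and 28 dpa. On the later 2 days that value lay close to the observed share, while single classes moved in both directions. At 28 dpa the 2 exchanges did not give the same split. There the 28 dpa shares with the unamputated makeup, 7.01%, still lay below the 7.82% of the unamputated library.

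**Figure D1:**
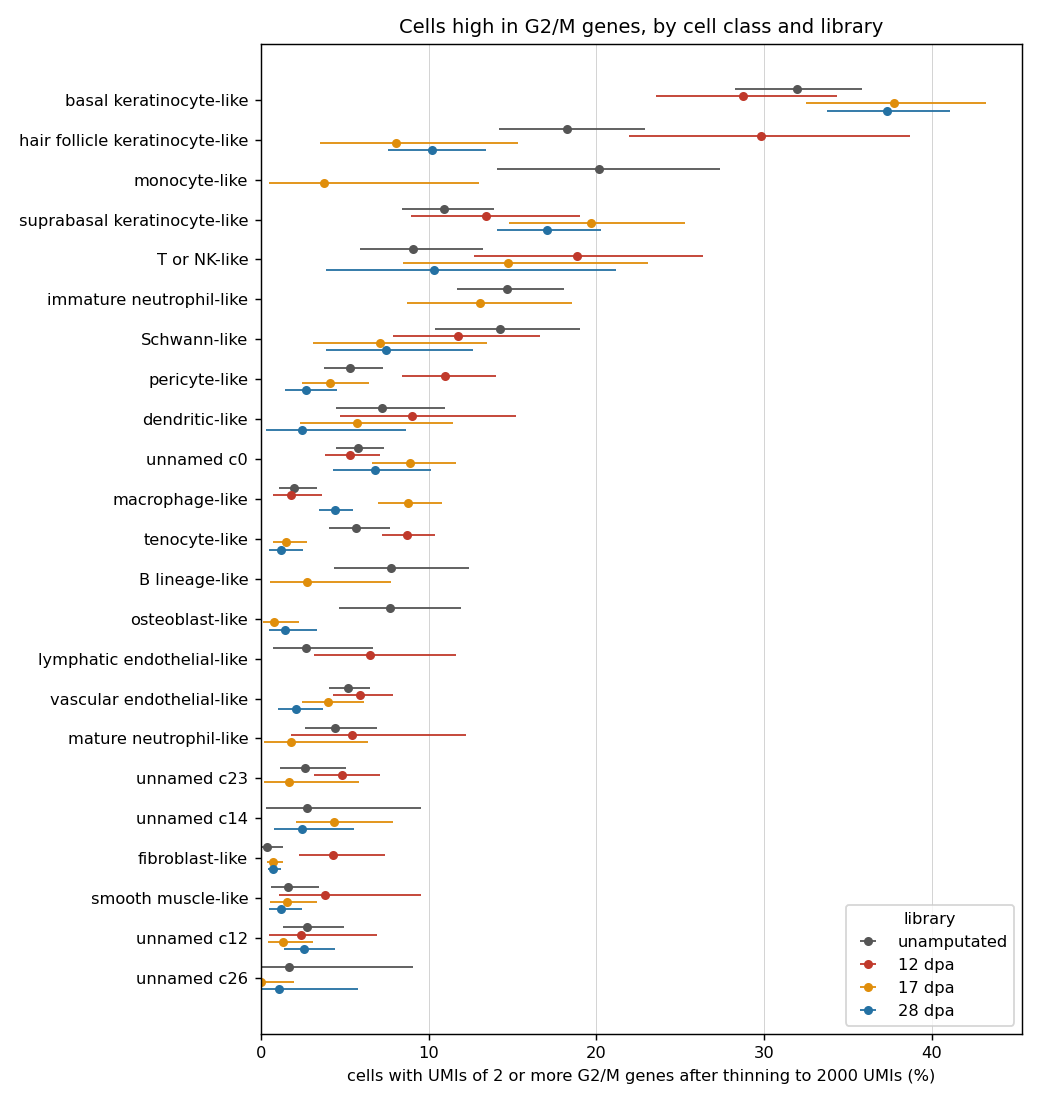
Percent of cells with 2 or more of the 28 G2/M genes after thinning to 2000 UMIs (horizontal axis) in each class with at least 50 thinned cells (vertical axis). Dots are libraries, coloured by day, and bars are exact 95% intervals; basal keratinocyte-like cells reach 37.8% at 17 dpa, and fibroblast-like cells lie at 4.32% or less (the unnamed clusters are led by Acp5 in c0, Id4 in c12, Apod and Cldn1 in c14, Kif26b in c23 and Itih5 in c26).

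Levels of the G2/M genes differed far more between classes than between days. Within a library the summed G2/M level spanned 34.8-fold between the lowest and highest class without amputation, 16.7-fold at 12 dpa, 62.7-fold at 17 dpa and 71.4-fold at 28 dpa, over 17 to 23 classes. The S genes spanned 7.66-, 8.26-, 8.68- and 7.11-fold. The highest class was basal keratinocyte-like for 13 of the 28 G2/M genes in all 4 libraries, but for 1 of the 15 S genes (Mcm2, a helicase subunit). Cenpf, a kinetochore protein, had the widest spread over classes, a mean over libraries of 7.27 on the log2(CPM + 1) scale. In the unamputated library it ran from 1.43 CPM in mature neutrophil-like cells to 188 CPM in basal keratinocyte-like cells. Pcna had the narrowest spread, 2.15, and ran from 27.3 CPM in an unnamed Kif26b, Fbn2 and Crabp1 cluster to 156 CPM in monocyte-like cells.

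**Figure D2:**
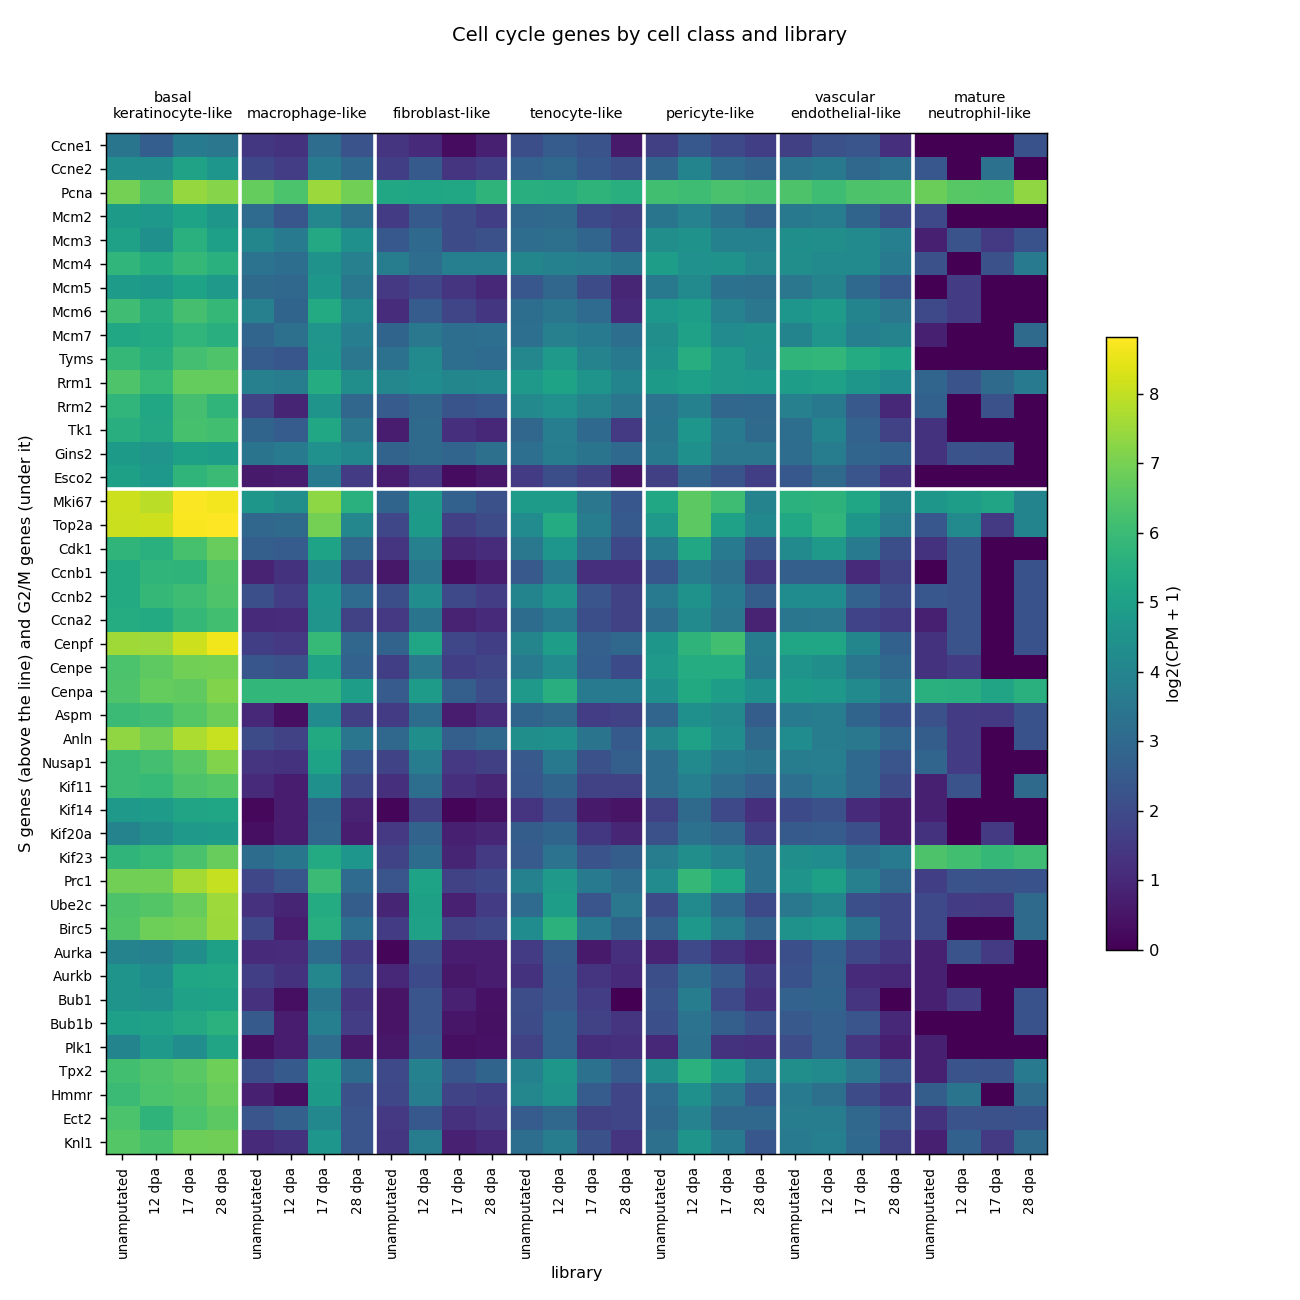
Levels of the 43 genes (rows, S genes and G2/M genes in separate blocks) as log2(CPM + 1) in 7 classes and 4 libraries (columns). Basal keratinocyte-like columns are high for nearly the whole list, and the macrophage-like column at 17 dpa and the fibroblast-like column at 12 dpa stand above their neighbours of the same class for most G2/M genes.

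Basal keratinocyte-like cells, defined by Krt5, Krt14, Trp63 and Col17a1, had more G2/M RNA at 17 and 28 dpa than without amputation, and a smaller excess of S gene RNA. Their summed G2/M level was 2216 CPM without amputation, 2250 at 12 dpa, 3168 at 17 dpa and 3872 at 28 dpa, from 637, 301, 337 and 708 cells. The log2 ratios to the unamputated library were 0.02 (−0.01 to 0.06), 0.52 (0.49 to 0.55) and 0.80 (0.78 to 0.83). The shares of G2/M-high cells were 32.0% (28.3 to 35.8), 28.7% (23.6 to 34.3), 37.8% (32.5 to 43.2) and 37.3% (33.7 to 41.0). The interval of each amputated library overlaps that of the unamputated one, and the differences in share were not tested. The summed S level was 698, 530, 920 and 813 CPM, lowest at 12 dpa and highest at 17 dpa. Its log2 ratios were −0.40 (−0.46 to −0.33), 0.40 (0.34 to 0.45) and 0.22 (0.17 to 0.27).

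Single G2/M genes differed in where their highest value lay. Mki67 stood at 282, 235, 432 and 398 CPM, Top2a at 271, 279.96, 425 and 447 CPM, and Cdk1, the mitotic kinase, at 53.6, 47.4, 74.9 and 107 CPM. All 3 had their lowest values in the unamputated and 12 dpa libraries. Ccnb1, the cyclin that activates CDK1, was at 40.9, 53.8, 52.1 and 83.8 CPM. Ube2c, the ubiquitin-conjugating enzyme that serves cyclin destruction, was at 81.1, 85.9, 108 and 184 CPM. Both were highest at 28 dpa. Here and in what follows a gene was called when its CPM differed at least 2-fold from the unamputated library after 1 CPM was added to both values, among genes with 5 CPM or more in either library. At 28 dpa 8 of the 28 G2/M genes were called higher (Ccnb1, Cenpf, Nusap1, Prc1, Ube2c, Birc5, Aurka and Plk1) and none of the 15 S genes, against 1.41% of the 10427 genes tested in this class (3.87% were called lower). All 28 G2/M genes had a higher CPM, with a median log2 ratio of 0.76, against 0.09 for the S genes and −0.21 for all genes. Scaling by the median ratio of all genes raised the count of members called higher to 14. The largest log2 ratios at 28 dpa belonged to Plk1 (1.18), Ube2c (1.17) and Nusap1 (1.11), which bundles spindle microtubules. The lowest were those of helicase subunits, Mcm6 (−0.27), Mcm4 (−0.20) and Mcm5 (−0.15).

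At 17 dpa 42 of the 43 genes had a higher CPM than without amputation, yet no member reached 2-fold, against 0.775% of all genes called higher and 1.39% lower. The exception was Ect2, which activates RhoA at the division plane, at 77.7 against 78.1 CPM. The medians were 0.33 for the S genes, 0.44 for the G2/M genes and −0.14 for all genes. The largest log2 ratios belonged to Kif20a (0.82), a motor of the central spindle, Esco2 (0.76), the acetyltransferase that locks sister chromatid cohesion, and Ccne2 (0.75). Mcm6 (0.08) and Mcm4 (0.09) were lowest after Ect2.

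At 12 dpa no member was called in either direction in basal keratinocyte-like cells, where 1.25% of all genes were called higher and 2.16% lower. Of the 15 S genes, 14 nonetheless had a lower CPM. The median log2 ratio of the 15 was −0.31, against 0.07 for the G2/M genes and −0.11 for all genes, and a shift of the group was not tested. Pcna was at 123, 77.4, 170.35 and 147 CPM over the 4 libraries, Mcm5 at 28.3, 25.0004, 33.4 and 25.5 CPM, and Mcm6 at 68.7, 44.6, 72.8 and 56.9 CPM. Rrm2, the regulated subunit of ribonucleotide reductase, was at 54.6, 37.5, 72.8 and 53.7 CPM. Each of these 4 had its lowest value at 12 dpa, in the case of Mcm5 with 28 dpa close by. Tyms, which makes thymidylate, was at 57.4, 46.0, 70.5 and 83.1 CPM, and the G1/S cyclins Ccne1 and Ccne2 at 9.69, 5.19, 11.5 and 10.3 CPM and at 19.0, 18.9, 32.5 and 23.5 CPM. At 12 dpa the lowest log2 ratios belonged to Ccne1 (−0.79), Pcna (−0.66) and Mcm6 (−0.61), and the highest to Plk1 (0.81), Ccnb2 (0.47), another mitotic cyclin, and Birc5 (0.43).

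**Figure D3:**
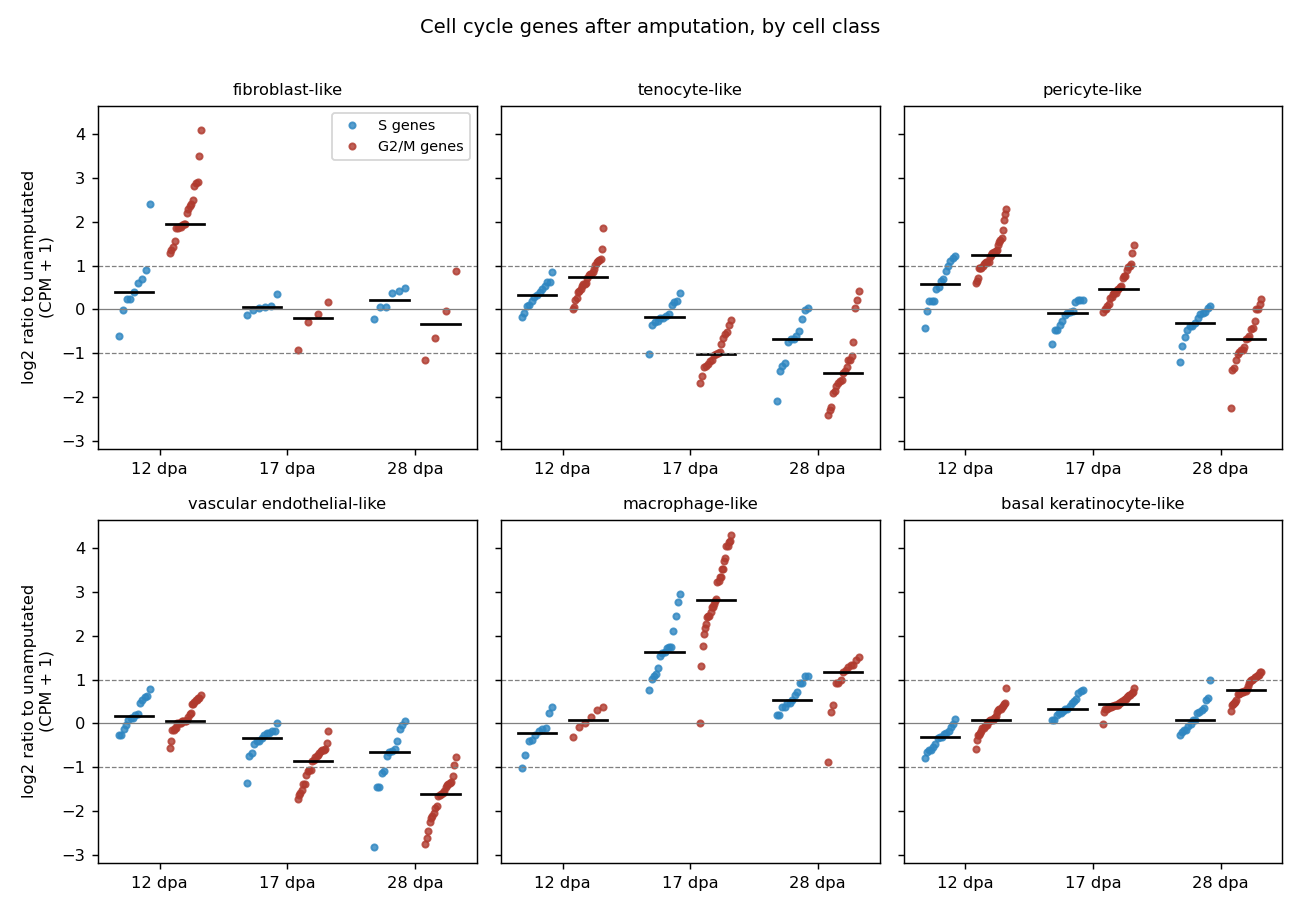
Log2 ratio of each tested member to the unamputated library (vertical axis, CPM + 1 on both sides) at 12, 17 and 28 dpa (horizontal axis) in 6 classes, with S genes in blue, G2/M genes in red, black bars at the medians and dashed lines at 2-fold. The G2/M points lie mostly above the upper line in fibroblast-like and pericyte-like cells at 12 dpa and macrophage-like cells at 17 dpa. They lie mostly below the lower line in vascular endothelial-like cells at 28 dpa and tenocyte-like cells at 17 and 28 dpa.

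The other keratinocytes split. Suprabasal keratinocyte-like cells, the differentiating layers above the basal one, had 916, 905, 1274 and 1399 CPM of G2/M RNA, higher at 17 and 28 dpa as in the basal class. Hair follicle keratinocyte-like cells had 1882, 2081, 1101 and 919 CPM, and their G2/M-high share was 18.3, 29.8, 8.08 and 10.2%. The later libraries were the low ones in this class.

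Macrophage-like cells had 6.93-fold as much G2/M RNA at 17 dpa as without amputation, with a smaller excess at 28 dpa. The summed level was 144 CPM without amputation, 135 at 12 dpa, 995 at 17 dpa and 217.1 at 28 dpa, from 657, 395, 893 and 1690 cells. The log2 ratios were −0.09, 2.79 (2.70 to 2.89) and 0.60. The 17 dpa ratio was 1.96 as a mean over cells, 1.87 with no doublets removed and 3.72 without Kif23, Cenpa and Mki67. The G2/M-high share was 1.99, 1.79, 8.75 and 4.41%, with an interval of 6.97 to 10.8% at 17 dpa. The S genes summed to 205, 162, 524 and 279 CPM and were highest at 17 dpa too. Mki67 was at 24.3, 19.6, 159 and 46.7 CPM, Top2a at 6.54, 7.30, 124 and 16.0 CPM, and Cdk1 at 5.29, 4.96, 33.2 and 6.505 CPM. For all 3 the 17 dpa value was the highest by a wide margin. Ccnb1 was at 0.83, 1.46, 16.1 and 2.32 CPM and Ube2c at 1.39, 0.88, 41.6 and 5.03 CPM, near absence without amputation and at 12 dpa.

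At 17 dpa all 43 genes had a higher CPM in macrophage-like cells, and 41 were at least 2-fold higher, against 3.75% of the 10004 genes tested (1.82% were lower). Of the 43, 28 reached 5 CPM only in the 17 dpa library and so had to differ. The median log2 ratio over all members was 1.64 for the S genes and 2.82 for the G2/M genes, beside 0.03 for all genes tested. The largest log2 ratios were 4.29 for Cenpf (2.09 against 59.4 CPM), 4.16 for Ube2c and 4.14 for Prc1, which crosslinks the central spindle (2.64 against 63.2 CPM). The exceptions were Cenpa, the histone variant of centromeres, at 55.6 CPM without amputation and 55.7 at 17 dpa, and Pcna, at 105, 78.9, 179 and 121 CPM over the 4 libraries. Of the replication genes, Mcm2 was at 7.37 and 15.9 CPM (log2 ratio 1.01). Over the 4 libraries Mcm5 was at 7.23, 6.72, 24.0 and 10.5 CPM, Mcm6 at 13.4, 6.13, 40.8 and 17.6 CPM, Rrm2 at 2.50, 0.88, 22.8 and 6.43 CPM, and Tyms at 4.87, 4.09, 24.4 and 10.1 CPM. The cyclins Ccne1 and Ccne2 were at 1.67, 1.46, 7.93 and 3.72 CPM and at 2.78, 2.04, 11.5 and 6.97 CPM. Each of these 6 S genes was highest at 17 dpa and next highest at 28 dpa.

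The macrophage-like excess at 17 dpa lay mainly in 1 of 2 clusters. The cluster led by Lyve1 and Folr2, genes of resident tissue macrophages, had 131, 113, 1384 and 218 CPM of G2/M RNA, but only 79 and 25 cells in the unamputated and 12 dpa libraries against 546 and 1547 at 17 and 28 dpa. The cluster led by Ms4a7 and C1q genes had 145, 136, 219.9 and 203 CPM from 578, 370, 347 and 143 cells. In that cluster alone the log2 ratios were −0.10, 0.60 and 0.48. When no doublets were removed the ratios of the class were −0.36, 1.87 and 1.11. An unnamed myeloid cluster led by Acp5 and H2-Ab1 had 325, 333, 626 and 302 CPM, also highest at 17 dpa.

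At 28 dpa 7 of the 13 G2/M genes that could be tested and 2 of the 13 S genes (Ccne2 and Rrm2) were called higher in macrophage-like cells, against 4.25% of all genes higher and 6.24% lower. Of these 26, 11 passed the 5 CPM minimum only through the 28 dpa library, and with a pseudocount of 5 CPM 1 member in place of 9 was called. Among the 26, Kif23, the kinesin of the central spindle, was highest (log2 ratio 1.51), followed by Anln (1.45), the scaffold of the cleavage furrow, and Birc5 (1.34). Cenpa was lowest (−0.87), followed by Mcm2 and Pcna (both 0.20). At 12 dpa 1 member, Mcm6, was called lower (−1.01), against 2.94% of all genes lower and 1.44% higher. Scaling by the median ratio of all genes, or a pseudocount of 5 CPM, left no member called lower, while dropping the 5 CPM minimum raised the count. Among the 16 members that reached 5 CPM, Mcm2 (−0.72) and Pcna (−0.41) were next, and Mcm7, Ect2 and Kif23 had the highest ratios (0.38, 0.38 and 0.30).

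Fibroblast-like cells had little G2/M RNA in 3 libraries and more at 12 dpa. The summed level was 63.7 CPM (59.0 to 68.8) without amputation, 400.1 CPM (380 to 421) at 12 dpa, 50.5 CPM (47.3 to 53.9) at 17 dpa and 54.2 CPM (51.2 to 57.4) at 28 dpa. The log2 ratios were 2.65 (2.52 to 2.79), −0.34 (−0.48 to −0.19) and −0.23 (−0.37 to −0.09). Few cells carried it: 2 of 535 thinned cells were G2/M-high without amputation, 12 of 278 at 12 dpa (4.32%, 2.25 to 7.42), 10 of 1367 at 17 dpa and 15 of 2071 at 28 dpa. The 12 cells held 88.4% of the G2/M UMIs of the class at 12 dpa, so the counting intervals on the sums, which treat UMIs as independent, are too narrow. Both fibroblast-like clusters showed the pattern, with 53.7, 335, 27.2 and 39.8 CPM in the Gdf10, C4b and Pi16 cluster and 76.4, 452, 76.1 and 58.4 CPM in the Ccn3, Clec3b and Pcolce2 cluster.

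The size of this difference depended on how the class was drawn. When no doublets were removed and the cells were clustered again, the 12 dpa log2 ratio of fibroblast-like cells was 0.44. Over a wider pool of connective tissue cells (fibroblast-, tenocyte- and osteoblast-like cells and 3 unnamed stromal clusters) the summed level was 191, 435, 102 and 67.8 CPM, and the log2 ratios were 1.19, −0.90 and −1.49. In the pool 3.70, 7.19, 1.19 and 1.02% of cells were G2/M-high.

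Gene by gene, all 28 G2/M genes had a higher CPM in fibroblast-like cells at 12 dpa than without amputation. Of the 21 that reached 5 CPM in either library all were at least 2-fold higher, against 2.49% of the 10739 genes tested (9.17% were lower), but 18 of them reached it only at 12 dpa and so had to differ. The median log2 ratio over all 28 was 1.92, beside −0.22 for all genes tested. Ube2c was at 0.87, 30.8, 0.77 and 1.86 CPM (9 and 114 UMIs in the first pair), Birc5 at 1.92, 32.2, 2.35 and 2.68 CPM, and Top2a at 2.69, 26.8, 2.19 and 3.18 CPM. Among members that reached 5 CPM they gave the largest log2 ratios, 4.09, 3.504 and 2.91. Mki67 was at 6.16, 25.4, 5.64 and 3.59 CPM, Cdk1 at 1.54, 13.3, 0.93 and 1.18 CPM, and Ccnb1 at 0.48, 10.01, 0.27 and 0.59 CPM. All were highest at 12 dpa.

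The S genes of fibroblast-like cells had a median log2 ratio of 0.59 over all 15 at 12 dpa. Of the 15, 12 had a higher CPM, and 1 of the 9 that could be tested, Tk1 (thymidine kinase, 0.58, 7.30, 1.31 and 0.95 CPM), was called higher. Tk1 reached 5 CPM only at 12 dpa and so had to differ, with 6 UMIs without amputation and 27 at 12 dpa. Tyms was at 8.76, 17.3, 8.00 and 7.36 CPM, Rrm2 at 4.72, 6.49, 3.89 and 4.31 CPM, and Mcm6 at 1.15, 4.87, 2.57 and 1.63 CPM. Mcm5 was at 1.73, 2.71, 1.48 and 1.00 CPM, Ccne1 at 1.54, 1.08, 0.22 and 0.73 CPM, and Ccne2 at 2.12, 4.60, 1.59 and 2.13 CPM. Apart from Ccne1 these were highest at 12 dpa. Pcna did not move with them, at 37.0, 36.5, 37.7 and 52.6 CPM. Among the 30 members that reached 5 CPM, Mcm4 (log2 ratio −0.60) and Pcna (−0.02) were lowest, then Gins2 (0.23), a subunit of the GINS complex of the active helicase.

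At 17 dpa no member was called in fibroblast-like cells, against 0.499% of all genes called higher and 1.88% lower. Among the 10 members that reached 5 CPM, Mcm7 (log2 ratio 0.35), Cenpa (0.17) and Gins2 (0.07) were highest and Cenpf (−0.92), Anln (−0.29) and Tyms (−0.12) lowest. At 28 dpa Cenpf was called lower (−1.15, 5.97 against 2.13 CPM) and no member higher, against 2.8% of all genes higher and 7.62% lower. Cenpf reached 5 CPM only without amputation, and with a pseudocount of 5 CPM it was not called. Among the 10 members that reached 5 CPM, Tpx2, a spindle assembly factor that activates Aurora A, had the highest ratio (0.88), then Pcna (0.50) and Gins2 (0.43), while Mki67 (−0.64) and Tyms (−0.22) followed Cenpf at the low end.

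In tenocyte-like cells G2/M RNA was higher at 12 dpa and lower at 17 and 28 dpa than without amputation, at 276, 490, 138 and 100.1 CPM. The G2/M-high share was 5.69, 8.71, 1.51 and 1.22%. At 12 dpa 7 of 24 tested G2/M genes were called higher (Top2a, Cdk1, Ccnb1, Nusap1, Ube2c, Birc5 and Plk1), against 0.631% of all genes higher and 4.27% lower, and 7 of the 24 reached 5 CPM only in that library. All 28 had a higher CPM. At 17 dpa 27 of the 28 had a lower CPM and 10 of 17 tested were called lower, against 1.11% of all genes lower and 1.4% higher; 7 of the 17 reached 5 CPM only without amputation. At 28 dpa 25 had a lower CPM and 15 of 19 tested were called lower, against 4.52% lower and 3.57% higher. Of the 19, 12 reached 5 CPM only without amputation, and all 12 were among those called. The called genes that reached 5 CPM in both libraries were Cenpf, Cenpa and Birc5. Of the 12 S genes tested on each of these days, Mcm2 (log2 ratio −1.01) was called lower at 17 dpa, and Mcm2 (−1.30), Mcm3 (−1.23), Mcm6 (−2.10) and Tk1 (−1.40) at 28 dpa; 2 and 5 of the 12 reached 5 CPM only without amputation. At 12 dpa none of 13 S genes was called. Mki67 was at 27.2, 28.1, 10.4 and 4.27 CPM, and Hmmr, a spindle protein, at 15.7, 21.3, 4.85 and 2.60 CPM. Ube2c was at 7.51, 29.97, 3.95 and 10.4 CPM, so its 28 dpa value lay above the unamputated one. The cluster led by Fmod and Scx held most of the signal (370, 504, 247 and 107 CPM), and its share of the class changed, with 416 of 689 cells, 1261 of 1324, 229 of 670 and 355 of 581. The Chad and Comp cluster was at 43.4, 81.1, 29.0 and 81.6 CPM.

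Pericyte-like cells had 307, 778, 486 and 181 CPM of G2/M RNA, highest at 12 dpa. All 28 G2/M genes had a higher CPM at 12 dpa and 20 of 27 tested were called higher, against 1.8% of all genes higher and 1.84% lower, with 8 that reached the minimum only in that library. Mki67 was at 38.3, 96.4, 65.7 and 14.5 CPM, and Plk1 at 0.97, 8.65, 1.43 and 1.28 CPM. Of the 15 S genes 13 also had a higher CPM at 12 dpa, and 3 of 14 tested (Ccne2, Tk1 and Esco2) were called higher. Of these, Esco2 reached 5 CPM only at 12 dpa (6.25 against 2.21 CPM). The median log2 ratio was 0.64 over all 15 S genes and 1.22 over all 28 G2/M genes, a difference that was not tested. At 17 dpa 3 G2/M genes were called higher (Cenpf, Aspm and Birc5), against 1.3% of all genes higher and 0.973% lower; 4 of the 23 tested reached 5 CPM only at 17 dpa. At 28 dpa 5 G2/M genes and Mcm6 were called lower, against 4.28% lower and 2.43% higher; 4 of the 19 G2/M genes tested reached 5 CPM only without amputation. Smooth muscle-like cells were likewise highest at 12 dpa, at 81.1, 304, 113 and 95.4 CPM.

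Vascular endothelial-like cells had similar G2/M levels without amputation and at 12 dpa, and lower ones later, at 430, 473, 232 and 119 CPM. The log2 ratios were 0.14, −0.89 and −1.85, and the G2/M-high share was 5.20, 5.89, 4.02 and 2.08%. At 12 dpa no member was called, against 0.769% of all genes called higher and 0.816% lower. At 17 dpa all 28 G2/M genes had a lower CPM and 10 of 22 tested were called lower, against 1.01% of all genes lower and 0.849% higher; 5 of the 22 reached 5 CPM only without amputation. At 28 dpa all 28 were again lower and 20 of 22 tested were called, against 3.65% lower and 2.24% higher. Of the 22, 14 reached 5 CPM only in the unamputated library and so had to differ. Of 13 S genes tested, Rrm2 was called lower at 17 dpa, and Mcm2, Mcm5, Mcm6, Rrm2 and Tk1 at 28 dpa, where 4 of the 13 reached 5 CPM only without amputation. The median log2 ratio over all 28 was −1.56 at 28 dpa, against −0.66 for the 15 S genes and −0.09 for all genes tested. Mki67 was at 48.8, 51.0, 35.4 and 15.6 CPM, and Rrm2 at 13.2, 10.8, 4.49 and 0.997 CPM, the last from 3 UMIs. Pcna showed no such decline, at 79.8, 66.0, 79.8 and 82.8 CPM. The cluster led by Cdh5 and other capillary genes was at 606, 578, 295 and 143 CPM, and the venular cluster led by Selp and Vwf at 118, 166, 134 and 88.5 CPM.

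Among the remaining classes, immature neutrophil-like cells, which carry granule genes such as Camp and Ltf, had 1438 CPM of G2/M RNA without amputation and 1591 CPM at 17 dpa, and the class had no cell at 12 and 28 dpa. Monocyte-like cells had 1345 CPM without amputation and 764 CPM at 17 dpa, the latter from 57 cells. Schwann-like cells, the glia of nerves, had 1011, 1286, 458 and 574 CPM, lower in the later libraries. T or NK-like cells had 610, 413, 954 and 361 CPM, and dendritic-like cells 429, 536, 582 and 195 CPM. Osteoblast-like cells had 334 CPM without amputation, 120 at 17 dpa and 76.8 at 28 dpa, with 13 cells at 12 dpa.

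**Figure D4:**
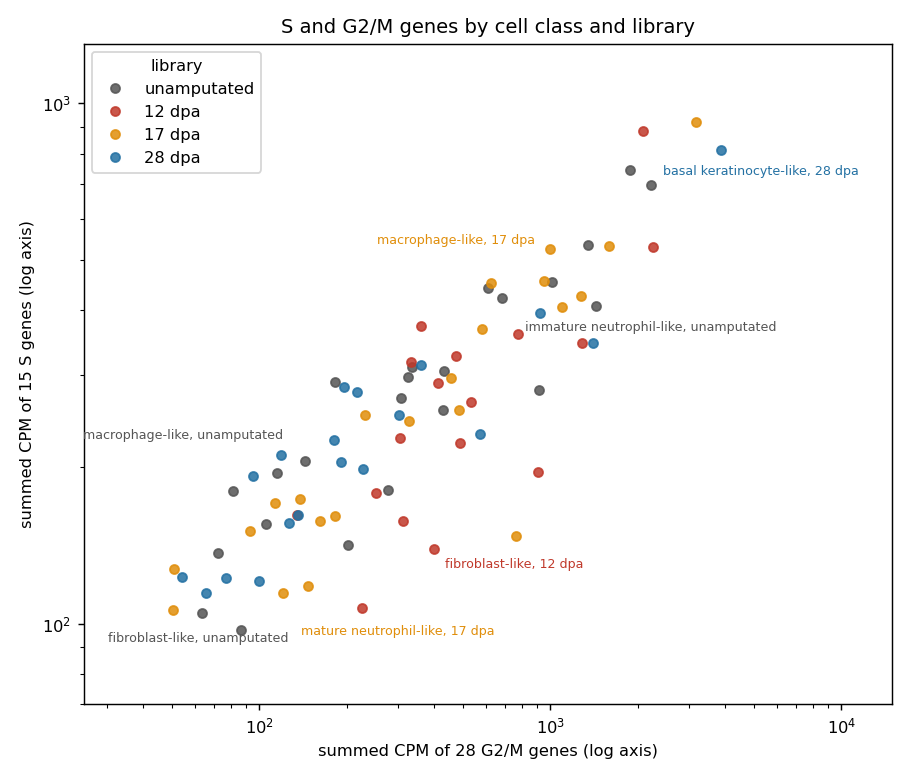
Summed level of the 28 G2/M genes (horizontal axis) against that of the 15 S genes (vertical axis), both in CPM on log scales, for every class and library with at least 50 cells (points, coloured by library). Basal keratinocyte-like cells at 28 dpa lie farthest right (3872 CPM), and the fibroblast-like point at 12 dpa (400.1 CPM) lies far to the right of the unamputated one (63.7 CPM) at S levels of 139 and 105 CPM.

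S and G2/M sums went together across classes but not in a fixed ratio. Over 81 units of class and library their log2 levels had a Pearson r of 0.87, given as a description because units of a library share depth and free RNA. The ratio of summed S to G2/M CPM was 0.31, 0.24, 0.29 and 0.21 in basal keratinocyte-like cells. It was 1.64, 0.35, 2.10 and 2.26 in fibroblast-like cells and 1.43, 1.20, 0.53 and 1.29 in macrophage-like cells, so it was lowest where their G2/M level was highest. The G2/M sum is the denominator of this ratio, so that order is in part built in. Among thinned cells, 4.58, 4.40, 4.07 and 4.04% had 2 or more S genes without 2 G2/M genes, 2.91, 3.14, 2.96 and 2.57% had both, and 5.06, 5.55, 3.03 and 3.76% had 2 or more G2/M genes without 2 S genes. The last share differed most between libraries.

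Not every member was tied to the rest. Over the same 81 units, Top2a and Mki67 (both r of 0.95) and Ube2c (0.93) followed the sum of the other G2/M genes most closely, and Kif23 (0.61) and Cenpa (0.68) least. Of the S genes, Esco2 (0.85), Rrm2 and Tk1 (both 0.78) followed it most closely, and Gins2 (0.51), Mcm4 (0.55) and Tyms (0.58) least, with Ccne1 and Pcna (both 0.60) next. At the level of single thinned cells of all classes, 90.6% of cells with a Birc5 UMI, 87.4% with Ube2c and 86.0% with Ccnb1 also had another G2/M gene. The share was 70.5% for Mki67, 56.8% for Kif23, 50.4% for Cenpa and 30.5% for Pcna, the last beside 19.1% of cells without a Pcna UMI.

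Mature neutrophil-like cells, which no longer divide, carried 3 G2/M transcripts at sizeable levels. Kif23 was at 80.5, 68.8, 57.3 and 66.1 CPM in them, Cenpa at 47.7, 45.9, 34.0 and 47.8 CPM, and Mki67 at 24.2, 28.7, 34.0 and 14.7 CPM. Ube2c was at 2.85, 1.91, 1.79 and 7.35 CPM, and Tyms and Esco2 had no UMI in any of the 4 libraries. Of the 73 thinned mature neutrophil-like cells with a Kif23 UMI 15.1% had another G2/M gene, beside 20.1% of the 546 without one. In basal keratinocyte-like cells these values were 91.0% of 189 and 43.6%. Kif23 therefore went with the other G2/M genes in one class and not in the other. Pcna was at 112, 91.7, 89.5 and 162 CPM in mature neutrophil-like cells, and 29.2% of cells with it had a G2/M gene against 29.6% without.

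This class was taken as the one that should lack the transcripts. Its G2/M-high share was 4.43, 5.43 and 1.82% in the unamputated, 12 dpa and 17 dpa libraries, at median depths of 2331, 1762 and 1944 UMIs, and too few cells were deep enough at 28 dpa. The fibroblast-like shares (0.374, 4.32 and 0.732%) and the unamputated and 12 dpa macrophage-like shares (1.99 and 1.79%) were not above it, at median depths of 18730, 12684.5 and 12590 UMIs for the first class and 10384 and 7908 UMIs for the second. Without Kif23, Cenpa and Mki67 the neutrophil shares were 0.739 and 1.09% and 0 of 110 cells, the last of which allows up to 2.73% by a limit of 3 counts, or 3.30% as the upper end of the exact interval. On the same 25 genes fibroblast-like cells had 0.374, 3.60, 0.585 and 0.628%. The 12 dpa value (1.74 to 6.52) overlaps that of the neutrophils (0.03 to 5.91). Macrophage-like cells had 0.459, 0.256, 6.48 and 2.24%. The 17 dpa value (4.94 to 8.31) lies above the neutrophil limit.

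**Figure D5:**
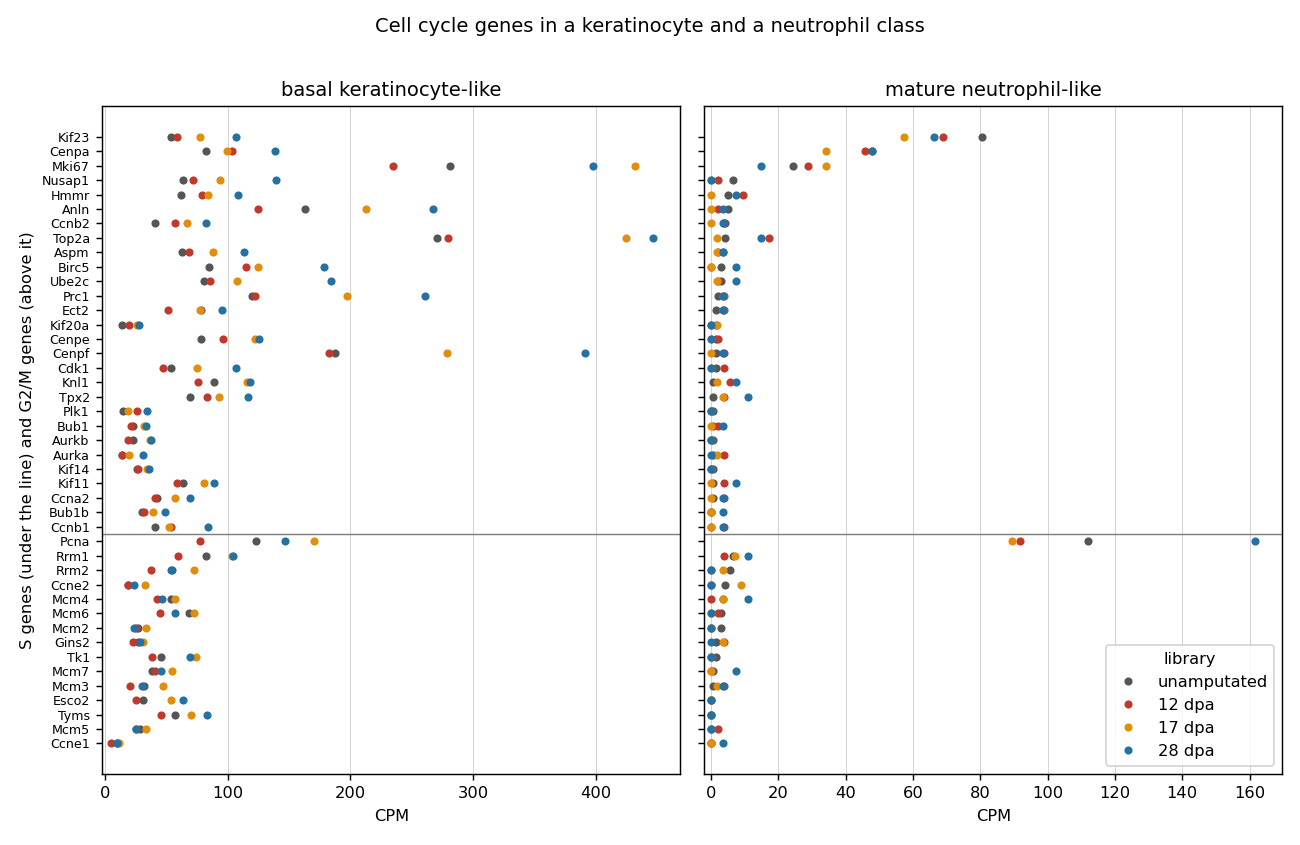
CPM of each of the 43 genes (vertical axis) in basal keratinocyte-like cells (left) and mature neutrophil-like cells (right, on its own horizontal scale), with 1 point per library. In the right panel Kif23, Cenpa, Mki67 and Pcna stand out, and Tyms and Esco2 lie at 0.

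From 6 fixed lists, also chosen with earlier results of these data known, a further 59 cell cycle genes outside the list were taken. Among them are D cyclins, CDK inhibitors and mitotic regulators. They are set beside the share of all genes called in the same comparison. In macrophage-like cells none of 36 was called at 12 dpa (all genes 1.44% higher, 2.94% lower), 24 of 51 were called higher and 0 lower at 17 dpa (3.75 and 1.82%), and 4 of 41 higher and 0 lower at 28 dpa (4.25 and 6.24%). In fibroblast-like cells 6 of 40 were called higher (Lin37, Cdc20, Pttg1, Cks2, Racgap1 and Ndc80) and 1 lower at 12 dpa (2.49 and 9.17%), 1 of 34 higher and 0 lower at 17 dpa (0.499 and 1.88%), and 3 of 33 higher and 1 lower at 28 dpa (2.8 and 7.62%). In basal keratinocyte-like cells 2 of 57 were called higher at 12 dpa (1.25%), 2 of 58 at 17 dpa (0.775%) and 4 of 56 at 28 dpa (1.41%; Cdkn2d, Cdc20, Pttg1 and Cks2), and 0 lower at any day (2.16, 1.39 and 3.87%). Pericyte-like cells had 9 of 53 higher and 0 lower at 12 dpa (1.8 and 1.84%), 0 of 47 higher and 2 lower at 17 dpa (1.3 and 0.973%), and 1 of 47 higher and 3 lower at 28 dpa (2.43 and 4.28%). Tenocyte-like cells had 1 of 46 higher and 0 lower at 12 dpa (0.631 and 4.27%), 2 of 46 higher and 1 lower at 17 dpa (1.4 and 1.11%), and 1 of 45 higher and 6 lower at 28 dpa (3.57 and 4.52%). Vascular endothelial-like cells had 0 of 50 called at 12 dpa (0.769 and 0.816%), 0 of 48 higher and 4 lower at 17 dpa (0.849 and 1.01%), and 1 of 47 higher and 10 lower at 28 dpa (2.24 and 3.65%). These counts rest in part on genes that reached 5 CPM in 1 library only and so had to differ, for example 18 of the 51 in macrophage-like cells at 17 dpa, 9 of the 40 in fibroblast-like cells and 7 of the 53 in pericyte-like cells at 12 dpa through the amputated library, and 9 of the 47 in vascular endothelial-like and 12 of the 45 in tenocyte-like cells at 28 dpa through the unamputated one. Over all 59 genes, whatever their level, the median log2 ratio in these 5 comparisons was 0.78, 0.26, 0.28, −0.51 and −0.57. Cdc20 and Pttg1 (securin), which control the onset of anaphase, and Cks2, a CDK1 partner, were thus called higher in both fibroblast-like cells at 12 dpa and basal keratinocyte-like cells at 28 dpa.

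The CDK inhibitor Cdkn1a (p21), which blocks entry into S phase, was called higher in 3 stromal or endothelial classes at late days. It was at 52.0, 71.4, 119.5 and 263 CPM in fibroblast-like cells, 44.4, 51.5, 122 and 228.5 CPM in tenocyte-like cells and 54.8, 59.2, 70.6 and 113 CPM in vascular endothelial-like cells. In each the value was highest at 28 dpa. Cdkn1c (p57), another inhibitor, was at 139, 88.5, 81.7 and 28.0 CPM in fibroblast-like cells and was called lower at 28 dpa, and Cdkn1b (p27) was at 91.7, 40.8, 76.0 and 67.6 CPM, called lower at 12 dpa. Ccnd1, a D cyclin that drives exit from G1, was at 11.4, 19.5, 14.1 and 47.9 CPM in fibroblast-like cells and at 44.8, 30.1, 84.2 and 109 CPM in macrophage-like cells. In basal keratinocyte-like cells Ccnd1 was at 208, 191, 219.7 and 245 CPM, and Cdkn2a and Cdkn2b were called higher at 12 and 17 dpa. In this class 6 CDK inhibitors could be tested at 12 and 17 dpa, but 4 at 28 dpa. Among the tested genes of all the lists, 2 at 12 dpa and 3 at 17 dpa reached 5 CPM only in the amputated library. The 2 calls may thus rest on genes that passed the minimum only where they were high.

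Genes outside all cell cycle and histone lists whose level across the 81 units was most like the summed G2/M level were Dbf4 (r of 0.83), Cip2a (0.82), Cdca7l (0.81), Kntc1 (0.80), Cenps (0.78), Stil (0.76), Hnrnpm, Efcab11, Wdhd1 and Slfn9 (each 0.75).

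Since the G2/M genes moved together across classes, the stretch of DNA around their transcription starts was read for the letters of known cell cycle motifs. The CCAAT box is the recognition motif of NF-Y, the sequences TTTGAA and TTCGAA are the core of the CHR element through which the DREAM and MMB complexes bind, and TTTCCCGC, TTTCGCGC, TTTGCCGC and TTTGGCGC are forms of the E2F site. RefSeq promoters of build GRCm38.p6, from 250 bases before to 50 after the start, matched 35 of the 43 genes, 24 G2/M and 11 S. Both strands were searched, and TTCGAA reads the same on both. TTTGAA was in 19 of 24 G2/M promoters (79.2%), in 1 of 11 S promoters (9.09%) and in 18.1% of all 27025 promoters. CCAAT was in 83.3, 72.7 and 37.9%, and an E2F form in 4.17, 36.4 and 2.32%. A pair or more of CCAAT boxes with TTTGAA or TTCGAA was in 50% of G2/M promoters, 9.09% of S promoters and 2.43% of all. Overlapping matches were each counted. The letter matches are descriptions and not measured binding.

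The following 5 promoters show the range, each written 5′ to 3′ on the gene's strand, with the motif letters in either orientation in capitals. Ube2c (2:164769679-164769978, plus strand) and Top2a (11:99024140-99024439, minus strand) are among the G2/M genes with large ratios in macrophage- and fibroblast-like cells, and both hold 6 CCAAT boxes. Cenpf, Prc1 and Hmmr, with ratios in macrophage-like cells at 17 dpa above that of Top2a, hold 2, 1 and 5. Kif23 (9:61946750-61947049, minus strand), one of the 3 G2/M genes at sizeable levels in mature neutrophil-like cells, holds 1 CCAAT box and 1 TTTGAA. Mcm5 (8:75109259-75109558, plus strand) and Mcm6 (1:128359656-128359955, minus strand) are S genes with E2F forms and no CHR core. Birc5 and Nusap1, which moved with Ube2c in several classes, held none of these letters in the window.
Ube2c: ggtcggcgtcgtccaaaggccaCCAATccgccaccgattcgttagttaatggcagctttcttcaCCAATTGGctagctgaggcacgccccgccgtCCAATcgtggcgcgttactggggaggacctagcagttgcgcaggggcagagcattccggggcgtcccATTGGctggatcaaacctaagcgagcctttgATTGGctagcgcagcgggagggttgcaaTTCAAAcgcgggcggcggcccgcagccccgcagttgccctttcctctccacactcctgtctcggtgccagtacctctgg
Top2a: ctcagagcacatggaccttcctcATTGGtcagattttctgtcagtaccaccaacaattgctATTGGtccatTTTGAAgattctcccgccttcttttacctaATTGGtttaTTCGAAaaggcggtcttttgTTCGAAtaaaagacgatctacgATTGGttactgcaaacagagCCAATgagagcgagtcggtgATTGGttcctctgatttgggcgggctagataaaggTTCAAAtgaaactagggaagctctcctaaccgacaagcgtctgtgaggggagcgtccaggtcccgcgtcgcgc
Kif23: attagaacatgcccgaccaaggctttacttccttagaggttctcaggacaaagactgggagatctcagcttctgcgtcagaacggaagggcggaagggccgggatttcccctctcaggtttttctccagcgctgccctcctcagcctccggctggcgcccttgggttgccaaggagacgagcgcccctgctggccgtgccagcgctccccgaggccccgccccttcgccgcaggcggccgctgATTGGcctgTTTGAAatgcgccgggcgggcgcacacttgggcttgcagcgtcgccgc
Mcm5: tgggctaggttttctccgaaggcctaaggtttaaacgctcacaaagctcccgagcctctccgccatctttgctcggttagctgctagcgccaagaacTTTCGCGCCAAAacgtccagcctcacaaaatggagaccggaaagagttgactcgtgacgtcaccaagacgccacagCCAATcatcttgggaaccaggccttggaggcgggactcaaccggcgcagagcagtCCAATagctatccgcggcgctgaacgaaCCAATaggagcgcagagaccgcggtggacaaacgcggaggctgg
Mcm6: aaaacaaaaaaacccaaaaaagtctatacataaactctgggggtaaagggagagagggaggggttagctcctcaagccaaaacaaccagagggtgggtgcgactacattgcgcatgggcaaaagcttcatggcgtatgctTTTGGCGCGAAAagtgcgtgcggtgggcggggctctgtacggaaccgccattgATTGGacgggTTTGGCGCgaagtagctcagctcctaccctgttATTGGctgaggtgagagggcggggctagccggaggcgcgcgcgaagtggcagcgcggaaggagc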

How the data were processed

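Per the submitters' processing notes, reads were processed with Cell Ranger 7.1.0 against mm10. The deposited matrices hold UMI counts per gene and cell barcode, whole numbers without normalization. Barcodes under 500 genes or 1000 UMIs, or above 10% mitochondrial UMIs, were dropped, and the barcodes with the highest Scrublet scores were removed at 0.8% per 1000 barcodes. With scanpy 1.11.5, 2000 variable genes (343 cell cycle, histone and related genes left out), 30 principal components and 15 neighbours gave 28 Leiden clusters at resolution 1. A cluster was named when at least 3 markers of a class were detected in 25% of its cells and it held 1 or more of them among its 10 leading genes; the last condition was chosen after the clusters were seen. UMIs were summed per class and library and scaled to CPM. Log2 ratios of single genes used a pseudocount of 1 CPM; those of sums used none. Intervals are exact (Clopper-Pearson for shares, Poisson for counts). One library a group allows no test and no p-value. All 43 members are accounted for; values in every library are printed for 12 preset genes in the main classes, and the 3 highest and 3 lowest members in each main class and comparison. The members and lists were chosen with earlier results of these data known. The code was checked on simulated counts. Other steps used numpy 2.4.6, scipy 1.17.1 and scikit-learn 1.9.0. Alternatives covered doublet removal, filters, thinning depth, clustering, pseudocount, scaling and member choice.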

Additional observations from a re-analysis of the deposited data

Results flagged for a closer look

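The log2 ratio of summed G2/M CPM to the unamputated library had opposite signs between classes at the same day, with counting intervals that leave out 0. At 17 dpa it was −0.34 in fibroblast-like cells against 0.52 in basal keratinocyte-like cells and 2.79 in macrophage-like cells. At 28 dpa it was −0.23 in fibroblast-like cells against 0.80 in basal keratinocyte-like cells and 0.60 in macrophage-like cells. The fibroblast-like intervals treat UMIs as independent and are too narrow. At Leiden resolution 2 the fibroblast-like ratios were −0.066 at 17 dpa and −0.28 at 28 dpa, and with no doublets removed −0.75 and −1.12. The share of G2/M-high fibroblast-like cells did not run the same way, with 0.374% of 535 cells without amputation, 0.732% of 1367 at 17 dpa and 0.724% of 2071 at 28 dpa. With 1 library a group the difference between classes was not tested. The comparisons share the unamputated library. No other result met a rule for a closer look, and groups of 1 sample could not be searched for outlying samples.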

How the results depend on the processing

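Of 155 alternative values, 89 stayed within the counting interval or within 1.5 times the count, 66 moved and 0 changed the sign of a ratio whose interval leaves out 0; the ratios at 12 dpa in basal keratinocyte-like and macrophage-like cells, near 0, changed sign in the cases given here and in the former also, at −0.0091, with the stricter filter. No paired analysis was possible because each group has 1 library, and for the same reason no library could be left out. Values are in the order unamputated, 12, 17 and 28 dpa for shares, and 12, 17 and 28 dpa for log2 ratios of summed G2/M CPM. The cause of a change was not tested where the construction does not give it. G2/M-high shares were 5.61, 5.87, 4.02 and 4.51% at 1000 UMIs and 12.6, 12.4, 9.48 and 10.3% at 4000. They were 22.95, 22.8, 17.2 and 19.2% with 1 gene required, 5.37, 5.94, 4.07 and 4.52% with 3, and 6.33, 6.95, 4.81 and 5.08% without Kif23, Cenpa and Mki67. With no doublets removed they were 10.3% unamputated, 6.89% at 17 dpa and 7.77% at 28 dpa, and with a stricter cell filter 4.82% at 17 dpa and 5.40% at 28 dpa. In both cases no 12 dpa value is given here, so the order of the unamputated and 12 dpa libraries cannot be read from them. With no doublets removed the ratios were 0.44, −0.75 and −1.12 in fibroblast-like, 0.21, 0.47 and 0.87 in basal keratinocyte-like and −0.36, 1.87 and 1.11 in macrophage-like cells. At resolution 2 they were −0.066 in fibroblast-like cells at 17 dpa and 0.17, 0.62 and 0.98 in basal keratinocyte-like cells. As a mean over cells they were 2.17 in fibroblast-like cells at 12 dpa, −0.11, 0.39 and 0.71 in basal keratinocyte-like cells, and 1.96 and 0.42 in macrophage-like cells at 17 and 28 dpa. Median-ratio scaling gave 2.85 in fibroblast-like cells at 12 dpa, 0.13, 0.67 and 1.01 in basal keratinocyte-like cells and 0.13 in macrophage-like cells at 12 dpa. The connective tissue pool gave 1.19, −0.90 and −1.49, and the Ms4a7 macrophage cluster alone 0.60 at 17 dpa and 0.48 at 28 dpa. Without Kif23, Cenpa and Mki67 the ratio was 0.84 in basal keratinocyte-like cells at 28 dpa and 3.72 and 1.06 in macrophage-like cells at 17 and 28 dpa, without the highest gene 1.09 in the latter, and with the stricter filter −0.33 at 12 dpa. Counts of called members changed in 7 cases: to 14 higher in basal keratinocyte-like cells at 28 dpa and 0 lower in macrophage-like cells at 12 dpa under median-ratio scaling; to 1 lower in fibroblast-like cells at 17 dpa and 3 lower in macrophage-like cells at 12 dpa without a minimum; and, with a pseudocount of 5, to 0 lower in fibroblast-like cells at 28 dpa, 0 lower in macrophage-like cells at 12 dpa and 1 higher in macrophage-like cells at 28 dpa.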
